A study of Mus musculus and Homo sapiens with 11 samples.

Results

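Chemokines and their receptors were compared between cultured mouse mammary tumour cells and a brain metastatic derivative of the same line. The genes were chosen by symbol alone: every row of the table named as a Ccl, Cxcl, Cx3cl or Xcl ligand, or as a Ccr, Cxcr, Cx3cr, Xcr or Ackr receptor. This gave 61 of the 24062 genes listed, 39 ligands and 22 receptors. Of the 17 ligands abundant enough to test, 9 fell in the derivative, among them Cxcl5, Cxcl2, Ccl2, Ccl5 and Ccl9, and Ccl6 and Ccl25 rose. Of 12 receptors tested, 4 fell and Cxcr3 rose. Each receptor called was abundant enough to test through its higher group alone. Over all genes tested, 15.8 percent fell and 12.2 percent rose. Of the 13 lower calls among ligands and receptors, only those of Ccl5, Ccl9 and Ccr4 held when each library was left out in turn. The genes tested were kept the same in those fits.

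Chemokines are small secreted proteins that guide the movement of cells. CXC ligands with a Glu-Leu-Arg motif draw neutrophils through Cxcr2, interferon-induced CXC ligands draw activated T cells through Cxcr3, and CC ligands draw monocytes, lymphocytes and other leukocytes through Ccr receptors. Receptors of the conventional kind signal through Gi proteins, whereas the atypical Ackr receptors bind and remove ligand. Carcinoma cells can secrete many of these ligands themselves and can carry some of the receptors, and in the brain the membrane-bound ligand Cx3cl1 is known for its receptor on microglia.

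Polyadenylated RNA libraries were used, 3 of the parental MMTV-ErbB2 line, a mouse breast cancer cell line named for ErbB2 driven by the mouse mammary tumour virus promoter, and 3 of its brain metastatic derivative, here called BrM, whose titles carry the name 2a. All were labelled as cultured cells with no treatment named; the age and strain of the mouse of origin were not given in the labels. The series' design text speaks of brains taken from injected mice, but the labels of these 6 libraries describe cell pellets. The BrM libraries all carry the name of 1 derivative, so they are no sample of independent metastases, and nothing states that the libraries came from separate cultures: the p-values therefore measure library-to-library spread alone, and that spread may be technical. Media (DMEM or RPMI) and library kits (TruSeq or NEBNext Ultra) were given as alternatives without saying which library had which, so neither can be told apart from the derivative. Library numbers are those of the deposited table's columns. The series also has 5 human libraries, not analysed here.

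Reads assigned to genes ran from 29877087 to 46683735 per library. BrM replicate 1, the shallowest library, stood apart from BrM replicates 2 and 3: 3614 and 3654 tested genes differed by at least 2-fold between it and them, against 220 between BrM replicates 2 and 3, and 976 to 1683 between parental libraries. Of the chemokine genes tested, 1 of 29 differed that much between BrM replicates 2 and 3, and 16 and 14 of 29 between BrM replicate 1 and each of them. Between parental libraries it was 11 of 29 for replicates 1 and 2, 6 for replicates 1 and 3, and 13 for replicates 2 and 3. Epithelial Epcam stood at 15669 or more in every library, and Erbb2 at 30959 or more. All 7 mammary epithelial markers were tested and present in every library. In BrM 3 were called higher and 2 lower, beside 12.2 percent and 15.8 percent of all genes tested.

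**Figure D1:**
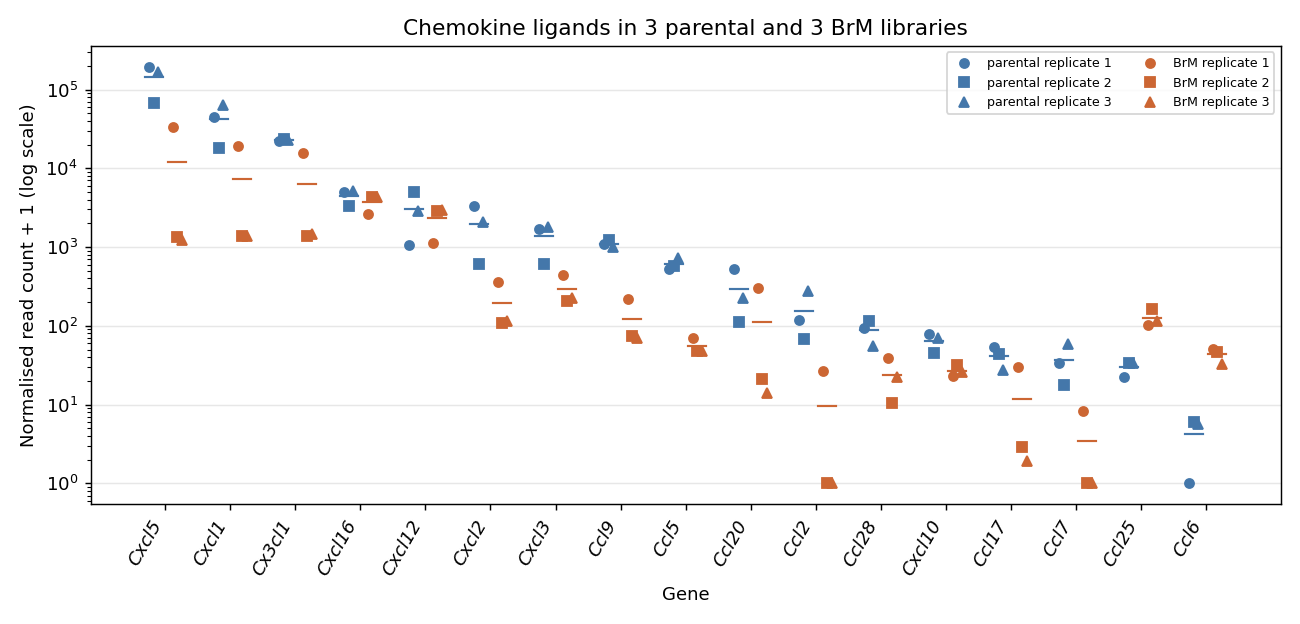
Normalised read counts plus 1 (log axis) of the 17 tested ligands, ordered by parental mean; each point is 1 library (blue parental, orange BrM) and each bar a group mean. Cxcl5 spans from 194439 in parental replicate 1 to 1238 in BrM replicate 3, and BrM replicate 1 lies nearer the parental libraries than the other two BrM libraries do for Cxcl5, Cxcl1 and Cx3cl1.

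Of the 61 genes, 15 were listed at 0 in all 6 libraries, 17 had reads but a mean under 10 and were not tested, and 29 were tested (17 ligands and 12 receptors). Values are the authors' normalised read counts, and each fold change is a difference of group means of log2(value + 1), which understates the change of low genes. With limma and a Benjamini-Hochberg adjusted p under 0.05 over all 13821 genes, 3 of the 29 rose in BrM (Cxcr3, Ccl6 and Ccl25) and 13 fell. Across all genes, 12.2 percent were called higher and 15.8 percent lower. All 3 BrM libraries lay above all 3 parental ones for 5 of the 29 and below them for 15, against 22.3 percent and 25.7 percent of all genes tested. The median log2 fold change was -2.18 over the 29 and -0.05 over all genes tested. Of the 29, 8 had a group mean under 10 and so passed the filter through their higher group alone: Ccl2, Ccl7, Ccr1, Ccr4, Cxcr4 and Ackr4 through the parental group, and Ccl6 and Cxcr3 through BrM. These counts are therefore a description. In bulk RNA, fewer cells with a transcript and less transcript per cell cannot be told apart.

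The number of lower calls depended on single libraries. Leaving out BrM replicate 1 gave 19 lower and 5 higher calls among the 29. Leaving out parental replicate 1, 2 or 3 gave 3, 6 and 4 lower calls, and leaving out BrM replicate 2 or 3 gave 3 each. The counts over all genes moved in the same fits, from 2190 lower and 1691 higher to 3608 and 2911 without BrM replicate 1, and to between 1263 and 1717 lower and between 918 and 1205 higher without each other library. Ccl5, Ccl9 and Ccr4 among the lower, and Ccl25 and Cxcr3 among the higher, were called in all 6 of these fits. The fits kept the genes tested with all 6 libraries, so the filter was not applied again. Of the 24 tested members with a lower BrM mean, BrM replicate 1 was the highest BrM library in 18, 75% of them, against 49.4% of the 7297 tested genes with a lower BrM mean. The split of calls over all genes also moved with scaling: 1691 higher and 2190 lower in the deposited values (43.6% higher) became 2228 and 1819 (55.1% higher) with libraries scaled to their upper quartile, which moved the median log2 fold change of all genes by 0.13. Under that scaling 4 of the 29 were called higher and 9 lower.

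**Figure D2:**
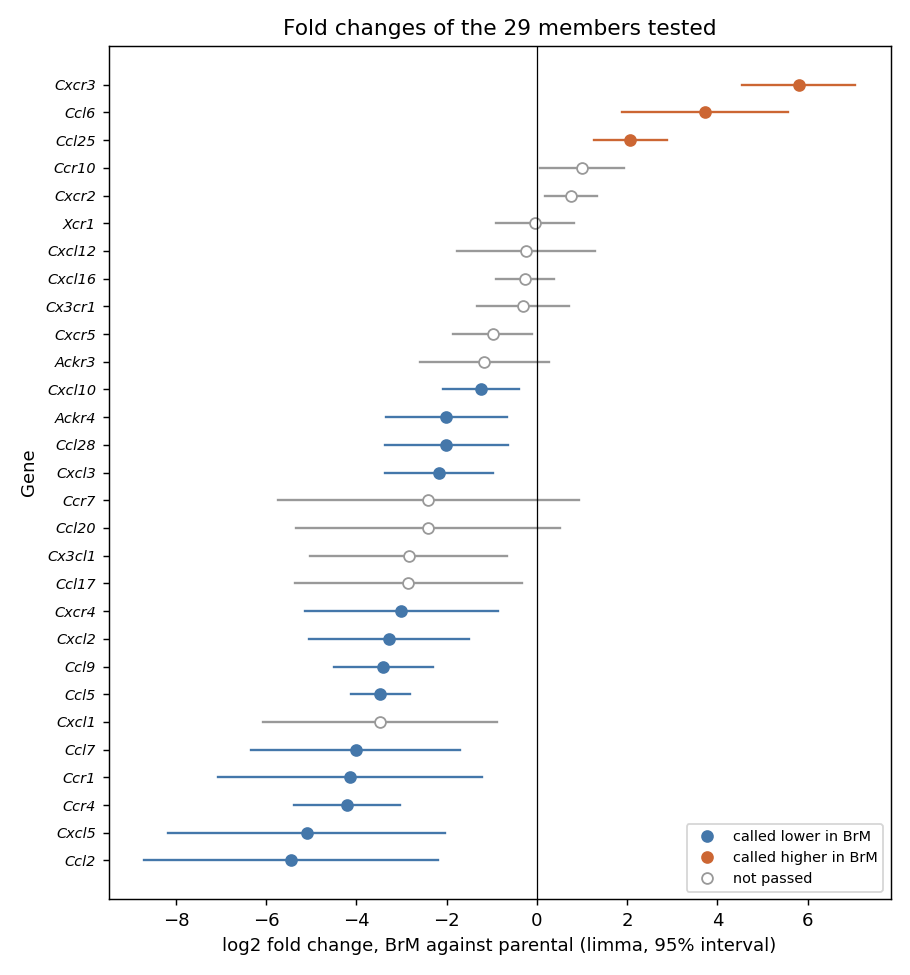
Log2 fold change of BrM against parental with its 95% interval from limma for the 29 members tested (x axis), 1 row per gene; filled points passed the adjusted threshold. The 13 called lower run from -1.24 for Cxcl10 to -5.45 for Ccl2, and the 3 called higher reach 5.80 for Cxcr3.

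The neutrophil-attracting CXC ligands lie in 1 stretch of mouse chromosome 5 (GRCm38), 147 kb from the start of Cxcl5 (90759360 to 90761624) to the end of Cxcl2 (90903871 to 90905938), with Cxcl3, Cxcl15 and Cxcl1 between them. Their promoters are textbook targets of NF-kB, which is why the 150 bases before the RefSeq start (GRCm38.p6, plus strand, 5′ to 3′) are shown for the 3 of them whose window in the promoter table holds the motif searched. Cxcl15 has a window without a match, and Cxcl5 was not matched in the table. Capitals mark matches to GGGNNNTTC on either strand. Cxcl10 is shown with 250 bases (minus strand, 5′ to 3′) because its window holds that motif and also GAAANNGAA, of the interferon-stimulated response type, likewise in capitals.
Cxcl1, chr5:90891095-90891244: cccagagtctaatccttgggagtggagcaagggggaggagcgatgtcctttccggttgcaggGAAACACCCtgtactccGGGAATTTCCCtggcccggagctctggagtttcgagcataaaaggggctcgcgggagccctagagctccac
Cxcl2, chr5:90903749-90903898: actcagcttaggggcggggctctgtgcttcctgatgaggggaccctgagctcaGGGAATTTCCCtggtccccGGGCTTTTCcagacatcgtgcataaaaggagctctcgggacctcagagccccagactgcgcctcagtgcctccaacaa
Cxcl3, chr5:90785951-90786100: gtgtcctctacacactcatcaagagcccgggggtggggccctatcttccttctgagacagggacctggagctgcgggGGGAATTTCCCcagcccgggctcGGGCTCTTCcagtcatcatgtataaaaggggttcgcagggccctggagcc
Cxcl10, chr5:92348890-92349139: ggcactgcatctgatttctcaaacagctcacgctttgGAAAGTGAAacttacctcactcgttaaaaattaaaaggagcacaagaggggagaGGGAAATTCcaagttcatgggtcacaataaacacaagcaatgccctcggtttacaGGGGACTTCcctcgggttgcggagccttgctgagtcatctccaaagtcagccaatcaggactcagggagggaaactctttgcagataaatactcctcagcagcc

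The run GGGAATTTCCC stands in the promoters of Cxcl1, Cxcl2 and Cxcl3, where it gives a pair of overlapping matches on opposite strands. It begins 71 bases before the start in Cxcl1, 97 in Cxcl2 and 73 in Cxcl3. Each of the 3 holds 1 further match. Searched over both strands of the 250 bases before and 50 after the start, GGGNNNTTC was found in 13.96% of 32851 promoter windows and GAAANNGAA in 8.56%. The chemokine genes had 52 windows from 45 of the 61 genes, of which 16 (30.8%) and 8 (15.4%) held the respective motif. Counted by gene, GGGNNNTTC was in 5 of the 9 called lower that had a window, 1 of 3 called higher and 4 of 9 that did not pass. Such a match is a run of letters, not a measured binding site.

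Cxcl5 was the most abundant ligand of the parental cells. It stood at 194439, 68140 and 167612 in the parental libraries and at 32959, 1349 and 1238 in BrM. The groups did not overlap, and BrM replicates 2 and 3 lay far below BrM replicate 1. Cxcl5 fell 34.3-fold (log2 fold change -5.10 ± 1.28 SE, adjusted p = 0.0277). That fold was 101 without BrM replicate 1, 20.4 without BrM replicate 2 and 19.6 without BrM replicate 3. Its adjusted p was 0.0648 to 0.0976 with any one library other than BrM replicate 1 left out, and 0.000174 without that one.

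Cxcl2 and Cxcl3, close relatives on the same chromosome, fell together. Cxcl2 stood at 3296, 599.6 and 2052 in the parental libraries and at 361.3, 106.2 and 113.6 in BrM, a 9.70-fold fall (adjusted p = 0.0197). Cxcl3 stood at 1707, 613.6 and 1802 in parental cells and at 439.4, 203.7 and 226.3 in BrM, a 4.52-fold fall (adjusted p = 0.0209). For both genes the lowest parental library, replicate 2, stayed above every BrM library. Without parental replicate 2 the falls were 15.8-fold and 6.41-fold. The calls were lost on leaving out any library but parental replicate 2 or BrM replicate 1, with an adjusted p of 0.0642 to 0.0694 for Cxcl2 and 0.0681 to 0.0796 for Cxcl3. Of the 50-base stretches of Cxcl2, 5.84% also occur in Cxcl3, so a few reads of the 2 genes could be exchanged.

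Cxcl1 did not pass. It stood at 44644, 17879 and 64250 in the parental libraries and at 19042, 1384 and 1386 in BrM. BrM replicate 1 lay above parental replicate 2, so the groups overlapped, while BrM replicates 2 and 3 lay far below every parental library. The log2 fold change was -3.48 with a 95% interval of ±2.59 (adjusted p = 0.0546), and it passed without BrM replicate 1 (26.8-fold lower, adjusted p = 0.000935). It was 7.23-fold lower without BrM replicate 2 or 3 (adjusted p = 0.153 and 0.149), against 11.2-fold with all libraries. Cxcl15, the fifth of these ligands, had too few reads to test.

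Among the interferon-inducible ligands, which share the receptor Cxcr3, only Cxcl10 was abundant enough to test. Its values were 77.3, 44.5 and 69.9 in the parental libraries and 22.0, 30.6 and 25.1 in BrM, with no overlap and with BrM replicate 1 the lowest. Cxcl10 fell 2.37-fold (log2 fold change -1.24 ± 0.35 SE, adjusted p = 0.0411). Its adjusted p was 0.0521 to 0.129 with any one library other than BrM replicate 1 left out. The exons of Cxcl10 overlap those of Art3 on the other strand by 133 bases, and the strand setting of the counting was not stated. Cxcl9 had 14 reads in the parental group and 19 in BrM, and Cxcl11 had 28 and 16, with 40.4% of its 50-base stretches also found in other genes.

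Cxcl12 and Cxcl16 were abundant in both groups and did not pass. Cxcl12, the ligand of Cxcr4 and of the scavenger Ackr3, stood at 1074, 5060 and 2888 in the parental libraries and at 1117, 2899 and 2922 in BrM. The parental libraries spanned more than the BrM ones, and the log2 fold change of -0.24 had a 95% interval of ±1.52 (adjusted p = 0.806). Cxcl16, a membrane-anchored ligand of Cxcr6, stood at 4981, 3307 and 5189 in parental cells and at 2628, 4305 and 4327 in BrM (log2 fold change -0.27, 95% interval ±0.64, adjusted p = 0.496), and its exons overlap those of Zmynd15 on the other strand by 552 bases. Here BrM replicate 1 was the lowest library of all, whereas for Cxcl5 it was the highest of the BrM libraries. Cxcl14 had 15 reads in the parental group, 10 of them in replicate 2, and none in BrM, at least 4.51-fold lower against a floor of 3 reads over the group. Cxcl17 had 17 parental reads and 10 in BrM, all 10 in BrM replicate 1.

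Among the inflammatory CC ligands, Ccl5 gave the smallest p-value of the chemokine genes. Ccl5, which draws T cells and monocytes, stood at 527.1, 574.9 and 719.5 in the parental libraries and at 69.6, 46.9 and 46.6 in BrM. All BrM libraries lay far below all parental ones, BrM replicate 1 included, and the fall was 11.1-fold (log2 fold change -3.47 ± 0.27 SE, adjusted p = 0.000424). With any one library left out it stayed between 10.1-fold and 12.6-fold, with an adjusted p of at most 0.00485. 

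Ccl9 and Ccl6 are neighbours on chromosome 11, 9.24 kb apart (83572919 to 83578636 and 83587882 to 83593087), and both encode rodent ligands of Ccr1 that attract myeloid cells. They moved in opposite directions. Ccl9 stood at 1080, 1212 and 1008 in parental cells and at 216.1, 72.7 and 68.9 in BrM, a 10.6-fold fall (log2 fold change -3.40 ± 0.45 SE, adjusted p = 0.00300). Ccl6 stood at 0, 4.94 and 4.72 in parental cells and at 50.0, 45.9 and 31.7 in BrM, a 13.2-fold rise (log2 fold change 3.72 ± 0.76 SE, adjusted p = 0.0140). Neither pair of groups overlapped. No 50-base stretch was shared between them. Ccl9 was called with any one library left out (adjusted p of at most 0.0194), whereas Ccl6 rested on 11 parental and 123 BrM reads, rose 7.34-fold without parental replicate 1, and had an adjusted p of 0.0525 without BrM replicate 2.

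Ccl2 and Ccl7, ligands of Ccr2 that draw monocytes, lie 8.26 kb apart on the same chromosome, at 82035571 to 82037453 and 82045712 to 82047525. Ccl2 stood at 118.0, 66.7 and 274.8 in parental cells and at 25.6, 0 and 0 in BrM, and Ccl7 at 32.6, 16.5 and 58.5 against 7.32, 0 and 0. For both genes parental replicate 3 was the highest library and all BrM reads came from BrM replicate 1. Ccl2 fell 43.7-fold (adjusted p = 0.0269) and Ccl7 16.1-fold (adjusted p = 0.0241). The falls were 131-fold and 32.7-fold without BrM replicate 1, and 25.3-fold and 11.3-fold without either of the other BrM libraries. With any one library other than BrM replicate 1 left out, the adjusted p was 0.0653 to 0.0898 for Ccl2 and 0.0533 to 0.0796 for Ccl7.

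Ccl17, a ligand of Ccr4, did not pass. Its values were 52.9, 42.8 and 26.4 in parental cells and 29.3, 1.91 and 0.931 in BrM, so that BrM replicate 1 lay within the parental range (log2 fold change -2.86, 95% interval ±2.51, adjusted p = 0.0883). The difference was 16.9-fold without BrM replicate 1 (adjusted p = 0.00114) and 4.28-fold without BrM replicate 3 (adjusted p = 0.222), against 7.25-fold with all libraries. Ccl3 and Ccl4, from the same cluster as Ccl6, and Ccl24 had too few reads to test. Ccl1, Ccl8, Ccl11, Ccl12, Ccl22 and Ccl26 were listed at 0 in every library.

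Of the homeostatic and mucosal CC ligands, Ccl25 rose and Ccl28 fell. Ccl25, the ligand of Ccr9 known from thymus and small intestine, stood at 21.4, 33.0 and 33.0 in parental cells and at 102.5, 160.7 and 113.6 in BrM. The groups were well apart, and the rise was 4.20-fold (log2 fold change 2.07 ± 0.34 SE, adjusted p = 0.00615). It was called with any one library left out, at 3.66-fold to 4.60-fold. The exons of Ccl25 overlap those of Elavl1 on the other strand by 204 bases. Ccl28, a mucosal ligand of Ccr10 also made by mammary epithelium, stood at 93.6, 115.3 and 53.8 in parental cells and at 37.8, 9.56 and 21.4 in BrM, a 4.03-fold fall without overlap (adjusted p = 0.0410). Its adjusted p was 0.0550 to 0.138 with any one library other than BrM replicate 1 left out.

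Ccl20, the ligand of Ccr6, stood at 532.2, 109.5 and 224.7 in parental cells and at 297.8, 20.1 and 13.0 in BrM. BrM replicate 1 lay above 2 parental libraries, and the difference did not pass (log2 fold change -2.41, 95% interval ±2.93, adjusted p = 0.189). The difference was 5.32-fold with all libraries, 13.8-fold without BrM replicate 1 (adjusted p = 0.00536), 2.99-fold without BrM replicate 3 and 3.55-fold without parental replicate 1 (adjusted p = 0.421 for both). Ccl27a had too few reads to test, and Ccl19, Ccl21a, Ccl21b, Ccl21c and Ccl27b were listed at 0.

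Cx3cl1, or fractalkine, lies 28.0 kb before Ccl17 on chromosome 8 (94772009 to 94782427) and was among the most abundant ligands. It stood at 22293, 23480 and 22681 in parental cells and at 15832, 1399 and 1444 in BrM. The parental libraries were nearly equal and no BrM library reached them, but BrM replicate 1 was far above the other BrM libraries. The log2 fold change was -2.84 with a 95% interval of ±2.19 (adjusted p = 0.0601). Without BrM replicate 1 it passed, 16.04-fold lower with an adjusted p of 2.49e-05. Leaving out BrM replicate 2 or 3 instead gave differences of 4.77-fold and 4.85-fold (adjusted p = 0.164 and 0.161), against 7.18-fold with all libraries. Xcl1, the C ligand of the table, was listed at 0.

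Summed over all ligands, the share of assigned reads was 0.688%, 0.316% and 0.710% in the parental libraries and 0.201%, 0.0327% and 0.0329% in BrM. Each BrM library was below each parental one. The neutrophil-attracting ligands made up 88.8%, 71.9% and 87.6% of the ligand sum in parental cells, 72.1% in BrM replicate 1, and 25.3% and 24.7% in BrM replicates 2 and 3. By normalised read count, Cxcl16 was the highest ligand of those last libraries and Cxcl5 of the other 4. Divided by the length of all annotated exons, the group means of normalised counts per kb put Cxcl5 first (76971 in parental cells and 6360 in BrM), then Cxcl1 (22537 and 3878), Cx3cl1 (5806 and 1584) and Cxcl16 (1487 and 1242) in both groups. The BrM order of the first 3 was set by BrM replicate 1: per kb, BrM replicate 2 held 1425 of Cxcl16, 738.1 of Cxcl1, 723.9 of Cxcl5 and 356.1 of Cx3cl1.

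**Figure D3:**
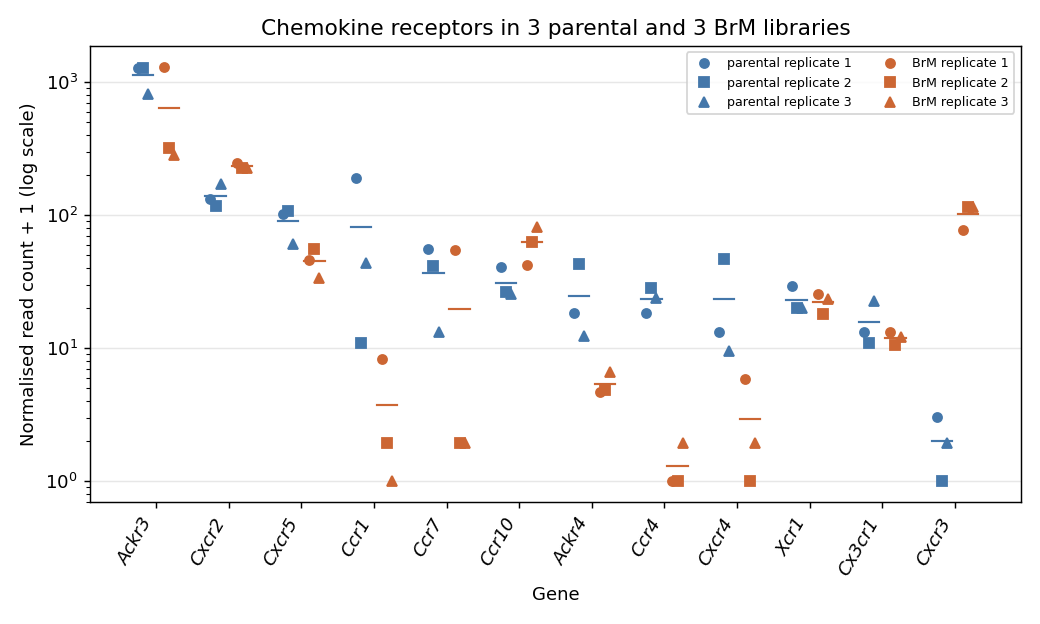
Normalised read counts plus 1 (log axis) of the 12 tested receptors, ordered by parental mean; each point is 1 library (blue parental, orange BrM) and each bar a group mean. Cxcr3 is near 0 in the parental libraries and at 75.7 to 114.8 in BrM, and Ccr4 shows the opposite pattern.

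Of the 12 receptors tested, Cxcr3 rose, and Ccr1, Ccr4, Cxcr4 and Ackr4 fell, with a median log2 fold change of -1.07 over the 12. That is 8.33% higher and 33.3% lower, beside 12.2 percent and 15.8 percent of all genes. Every receptor called had passed the filter through its higher group alone, so these shares are a description. Per kb of annotated exons, Ackr3 had the highest mean normalised count (335.8 in parental cells and 189.7 in BrM), followed by Cxcr2 (45.5 and 75.9).

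Cxcr3, the receptor of Cxcl9, Cxcl10 and Cxcl11 (chromosome X, 101731535 to 101734269), stood at 2.04, 0 and 0.944 in parental cells and at 75.7, 114.8 and 113.6 in BrM. It had 3 reads in the parental group and 304 in BrM, a ratio of depth-scaled reads of 112 with an exact 95% counting interval of 38.1 to 547. The groups lay far apart in all libraries, and the limma log2 fold change was 5.80 ± 0.52 SE (adjusted p = 0.000712, at most 0.00575 with any one library left out). Cxcr3 had passed the filter through BrM alone, and the fits without a library did not apply the filter again. Cd3e, the T cell marker, was at 0 in 5 libraries and at 1.22 in BrM replicate 1. The leukocyte marker Ptprc stood at 0, 0 and 2.83 in parental cells and at 4.88, 1.91 and 4.66 in BrM. Csf1r, of the same marker list, was called higher in BrM. Which cells carried the Cxcr3 reads was not tested.

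Ccr4, the receptor of Ccl17, was the receptor whose fall was called with each library left out in turn. Those fits did not apply the filter again, and Ccr4 had passed it through the parental group alone. Ccr4 stood at 17.3, 27.2 and 22.7 in parental cells and at 0, 0 and 0.931 in BrM. With 74 reads against 1, the ratio of depth-scaled reads was 66.8, with an exact 95% counting interval of 11.6 to 2673 (limma log2 fold change -4.21 ± 0.49 SE, adjusted p = 0.00178, at most 0.0142 with any one library left out).

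Ccr1, a receptor of Ccl5, Ccl6 and Ccl9, stood at 188.3, 9.88 and 42.5 in parental cells and at 7.32, 0.956 and 0 in BrM. The parental libraries differed widely among themselves, and parental replicate 2 lay only just above BrM replicate 1. Ccr1 fell 17.7-fold (adjusted p = 0.0468), and the fold was 8.58 without parental replicate 1, 35.8 without parental replicate 2, 32.0 without BrM replicate 1 and 11.1 without BrM replicate 3. The call was lost on leaving out any library but parental replicate 2 or BrM replicate 1 (adjusted p of 0.115 to 0.131).

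Cxcr4, the receptor of Cxcl12 studied in metastasis of breast cancer, was scarce in both groups. It stood at 12.2, 46.1 and 8.50 in parental cells and at 4.88, 0 and 0.931 in BrM, which rests on 77 and 5 reads. The groups did not overlap, parental replicate 2 held most of the parental signal, and the fall was 8.04-fold (adjusted p = 0.0474). Without parental replicate 2 it was 4.98-fold and without BrM replicate 1 13.0-fold, and the adjusted p was 0.0628 to 0.144 with any one library other than BrM replicate 1 left out. Ackr4, which takes up Ccl19, Ccl21 and Ccl25, stood at 17.3, 42.0 and 11.3 in parental cells and at 3.66, 3.83 and 5.59 in BrM, a 4.03-fold fall without overlap (adjusted p = 0.0393). Its call was lost on leaving out any library but parental replicate 3 or BrM replicate 1 (adjusted p of 0.0835 to 0.114), and its exons overlap those of Acad11 on the other strand by 479 bases.

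Several receptors did not pass although their groups were apart. Cxcr2, the receptor of the neutrophil-attracting ligands, stood at 130.3, 116.1 and 170.0 in parental cells and at 244.1, 223.8 and 226.3 in BrM (log2 fold change 0.75, 95% interval ±0.58, adjusted p = 0.0597). Ccr10, the receptor of Ccl28, stood at 39.7, 25.5 and 24.5 in parental cells and at 41.5, 62.2 and 81.0 in BrM (log2 fold change 1.00, 95% interval ±0.93, adjusted p = 0.102). Both had higher values in BrM, the opposite side from their ligands. Cxcr5, the receptor of Cxcl13, stood at 101.8, 106.3 and 59.5 in parental cells and at 45.2, 54.5 and 32.6 in BrM (log2 fold change -0.98, 95% interval ±0.88, adjusted p = 0.0934), and its exons overlap those of Bcl9l on the other strand by 110 bases.

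In the remaining receptors tested the groups overlapped. Ackr3, the scavenger of Cxcl12, stood at 1283, 1277 and 813.0 in parental cells and at 1302, 318.5 and 284.1 in BrM, so that BrM replicate 1 was the highest library of all (log2 fold change -1.16, 95% interval ±1.43, adjusted p = 0.193). Ccr7, the receptor of Ccl19 and Ccl21, also had BrM replicate 1 within the parental range, with 55.0, 40.4 and 12.3 in parental cells and 53.7, 0.956 and 0.931 in BrM (adjusted p = 0.246). Without BrM replicate 1 the differences passed, at 3.65-fold for Ackr3 and 16.1-fold for Ccr7, whereas without BrM replicate 3 they were 1.71-fold and 3.03-fold (adjusted p = 0.427 and 0.499). Cx3cr1, the receptor of Cx3cl1, stood at 12.2, 9.88 and 21.7 in parental cells and at 12.2, 9.56 and 11.2 in BrM (adjusted p = 0.621). Per kb it held 3.24 in parental cells and 2.44 in BrM, where its ligand held 5806 and 1584. Xcr1, the receptor of Xcl1, stood at 28.5, 18.9 and 18.9 in parental cells and at 24.4, 17.2 and 22.4 in BrM (log2 fold change -0.04, 95% interval ±0.87, adjusted p = 0.948), with a sign that turned under both other scalings.

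For several ligands the receptor was barely read in these cells. Cxcr6, the receptor of Cxcl16, had 22 parental and 9 BrM reads, Ccr9, the receptor of Ccl25, had 11 and 8, and Ccr2, the receptor of Ccl2 and Ccl7, had 7 and 12. Ccr3, Ccr6 and Ackr2 had fewer, and Ccr8, Cxcr1 and Ackr1 were listed at 0. Cxcl13 also had too few reads to test.

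**Figure D4:**
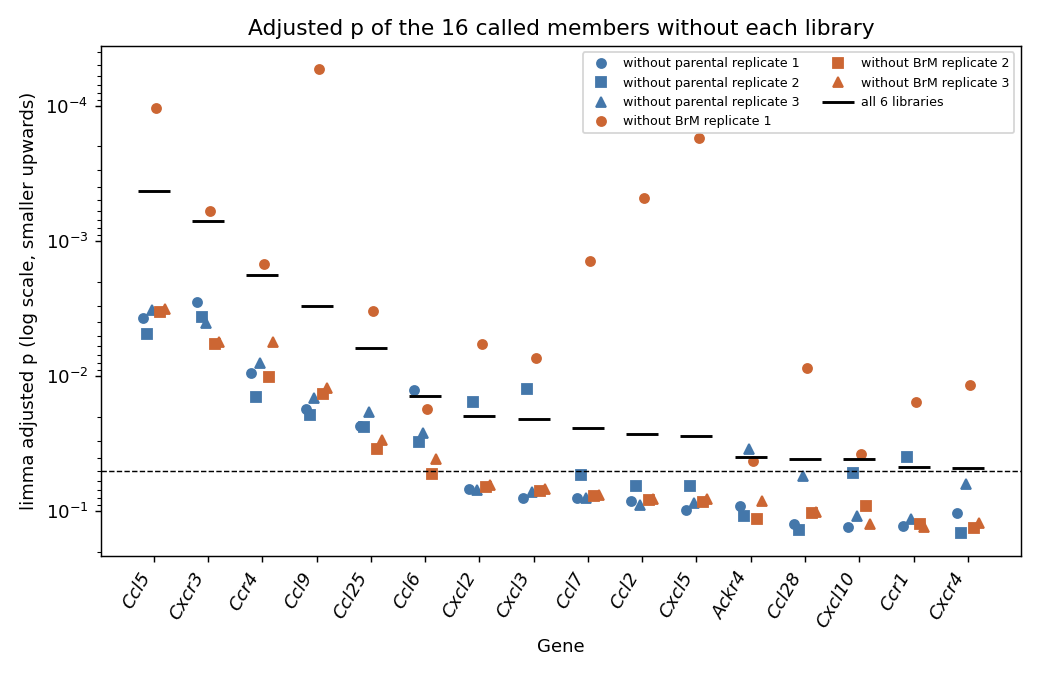
Adjusted p from limma (log axis, smaller upwards) of the 16 called members with all 6 libraries (black bars) and without each library (points; blue parental, orange BrM); the dashed line is the threshold of 0.05. Every point of Ccl5, Cxcr3, Ccr4, Ccl9 and Ccl25 lies above the line, and all points without BrM replicate 1 do.

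Of the 16 called genes, 10, 7 and 9 lost the call without parental replicate 1, 2 or 3, and 0, 11 and 10 without BrM replicate 1, 2 or 3. A further 8 genes passed without BrM replicate 1. Of these, Cxcl1, Cx3cl1, Ccl17, Ccl20, Ccr7 and Ackr3 were lower in BrM, and Cxcr2 and Ccr10 higher. With BrM replicates 2 and 3 averaged into 1 sample, the lower calls were Ccl5, Ccl9 and Ccr4 and the higher calls Cxcr3, Ccl6 and Ccl25. EdgeR on the recovered reads lost Cxcl5 (adjusted p = 0.104), Ccl2 (0.0854), Cxcr4 (0.0612), Ccl7 (0.0571) and Ccr1 (0.0529), and DESeq2 lost none of the 16 and added Cxcl1 and Cxcr2. Upper quartile scaling lost Ccl28, Ccr1, Cxcl10 and Cxcr4 (adjusted p of 0.0507 to 0.0546) and added Cxcr2, with Ccr1, Cxcr4 and Ackr4 also lost at a pseudocount of 5 (0.0501 to 0.0628).

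Genes that act upstream of chemokine transcription gave lower calls only. Of 20 listed inducers, all tested, 11 fell and 0 rose, beside the 15.8 percent lower and 12.2 percent higher of all genes, with a median log2 fold change of -0.72. Il1r1, the interleukin-1 receptor, fell from 726.6, 906.9 and 619.4 to 25.6, 12.4 and 5.59 (55.8-fold, adjusted p = 0.000730). Tlr2, a sensor of bacterial lipoproteins, fell from 4114, 1953 and 4419 to 448.0, 205.6 and 204.0 (12.3-fold, adjusted p = 0.00207). The transcription factors Cebpd and Cebpb, which act with NF-kB at inflammatory genes, fell 8.57-fold and 3.47-fold (adjusted p = 0.00419 and 0.00497). In all 4 the groups were apart. Whether these falls bear on the chemokine differences was not tested.

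Chemoattractant genes outside the symbol pattern gave 0 higher and 2 lower calls of 5 tested, beside 12.2 percent and 15.8 percent of all genes, and their median log2 fold change was 0.31. Ccrl2, a non-signalling receptor that presents chemerin, fell from 12740, 8681 and 8217 to 440.7, 152.1 and 148.1 (44.8-fold, adjusted p = 0.000506), and Cmklr1, the signalling receptor of chemerin, from 311.4, 688.6 and 227.6 to 1.22, 1.91 and 3.73 (117-fold, adjusted p = 0.000415). Of 28 tested genes of receptor signalling, 4 rose and 6 fell (median log2 fold change -0.27), shares near the 12.2 percent and 15.8 percent of all genes. Rgs16, which ends Gi signalling, fell 192-fold, and Gnai1, a Gi subunit, 42.7-fold. The kinase Grk5 fell 2.30-fold and the kinase Ptk2b rose 3.03-fold. Of 9 genes of ligand presentation, processing and mRNA decay, 1 rose and 4 fell, with a median log2 fold change of -0.67, beside the same 12.2 percent and 15.8 percent. The proteoglycan Sdc1 rose 4.57-fold and Sdc4 fell 2.78-fold, Ndst1, an enzyme of heparan sulphate synthesis, fell 1.72-fold, and Adam10, which sheds Cx3cl1 and Cxcl16, fell 1.595-fold (adjusted p of 0.0195 or less for these 8 genes).

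Markers of other cell types were read in the same libraries. Of 10 listed leukocyte markers, the defining genes Ptprc, Cd3e, Itgam, Emr1 and Tyrobp stood at 6.10 or less in every library. The list's summed level was 274.3 to 1006 in parental libraries and 455.4 to 3046 in BrM. Csf1r accounted for part of this, at 2.04, 1.65 and 18.9 in parental cells against 318.6, 254.4 and 230.0 in BrM (adjusted p = 0.00370), and Cd68 reached 2670 in BrM replicate 1. Lyz2, a myeloid gene, stood at 353.1 in parental replicate 1, where Ccr1 was also highest, and at 6.61 or less elsewhere. Of 6 fibroblast and pericyte markers tested, 4 fell and 0 rose, beside 15.8 percent lower and 12.2 percent higher of all genes. Col1a1 and Pdgfra overlapped between the groups and did not pass (adjusted p = 0.522 and 0.332). The summed level of the 8 was 4644 to 16102 in parental libraries against 220.0 to 1110 in BrM, with Lum at 0 throughout. Pdgfrb stood at 2765, 3683 and 1002 against 0, 0.956 and 3.73. Endothelial markers summed to 25.6 or less everywhere, with 0 of 5 tested. Of 3 brain markers tested, Gfap and Mbp rose and 0 fell, beside 12.2 percent higher and 15.8 percent lower of all genes. The 8 listed brain markers summed to 1005 to 1343 in parental libraries and 2212 to 2338 in BrM. Mbp made up most of these sums, at 949.5, 1254 and 1257 in parental cells and 2109, 2055 and 2090 in BrM. Snap25, under the filter, was lower in BrM, at 2.04, 2.47 and 5.67 against 0, 1.91 and 1.86. Aqp4, Mog and Rbfox3 were at 1.22 or less. The part of these cell types in the chemokine differences was not tested.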

How the data were processed

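Libraries of polyadenylated RNA were sequenced on an Illumina HiSeq, per the labels. The deposited signal values are the authors' normalised read counts. The submitters' processing notes name STAR, HTSeq, GRCh38 and GRCm38; the annotation, strand setting and scaling method were not given in the sources used here. Dividing each library by its smallest value above 0 (0.824 to 1.22, the worth of 1 read) turned 100% of its values into whole numbers within a tolerance of 0.01, which gave back the reads.

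Genes whose mean over the 6 libraries reached 10 entered the test, made with limma 3.58.1 (R 4.3.3) on log2(value + 1), with an intensity trend, two-sided, with the group alone in the model. P-values were adjusted by Benjamini-Hochberg over all 13821 genes, with a threshold of 0.05. The procedure was tested on simulated data, in which no library stood apart from its group as BrM replicate 1 did. Alternatives were edgeR 4.0.16 and DESeq2 1.42.0 on the recovered reads, other pseudocounts, filters, scalings and weights, and each library left out. Fits without a library kept the 13821 genes tested with all 6 libraries. Intervals of read ratios and floors cover counting error only.

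The members, gene lists, motifs and alternatives were chosen with earlier results of these data known. Every tested chemokine gene was named with its 6 values; those under the filter were named with their reads where a group had at least 10, and otherwise named only. Results on items withheld for evaluation are not reported here. Of each other list, the called genes with the 4 smallest p-values were named, and marker genes are named as examples chosen after their values were seen. Coordinates and exon lengths come from GENCODE M21, which held 60 of the 61 symbols, and promoter sequences from RefSeq (GRCm38.p6).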

Additional observations from a re-analysis of the deposited data

How the results depend on the processing

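Over the 29 chemokine genes and 19 alternatives, 427 fits kept the direction and the side of the threshold, 78 kept the direction but lost a call, 26 gained one and 8 turned the sign. Those 8 concerned uncalled genes: Cxcl12, at 0.26 without parental replicate 2 and 0.22 without BrM replicate 1 (log2 fold change, -0.85 to 0.26 over single libraries); Cxcl16, at 0.13 with array weights; and Xcr1, at 0.043 with equal library totals, 0.088 with upper quartile scaling, 0.018 with BrM replicates 2 and 3 averaged, 0.15 without parental replicate 1 and 0.10 without BrM replicate 2 (-0.14 to 0.15 over single libraries). Over all genes, 3881 were called, 8485 with array weights, 2279 with BrM replicates 2 and 3 averaged, and 2191 to 6519 without single libraries. Of the chemokine genes, the 13 lower calls became 20 with array weights, 8 with edgeR, 3 with BrM replicates 2 and 3 averaged, 7 at a minimum mean of 50 (17 genes tested) and 3 to 19 without single libraries; the 3 higher calls became 5 with array weights and 2 to 5 without single libraries. Beyond fewer genes or libraries, the cause was not tested. On the recovered reads edgeR called 3753 of all genes and DESeq2 5075, with 4 chemokine genes higher and 14 lower by DESeq2. With the column number as a replicate block, 4040 genes were called, and 3 chemokine genes higher and 13 lower; Ackr4, Ccl28, Cxcl10 and Cxcr4 left the calls and Cxcl1, Cx3cl1, Ccl17 and Ccl20 entered. Deviations of same-numbered libraries correlated at 0.30, -0.09 and 0.33. Parental replicates 1 and 3 correlated best with their own number, and parental replicate 2 did not. Parental replicate 3 correlated nearly as well with BrM replicate 2 (0.31), so this check cannot decide whether same-numbered libraries are pairs. A term for numbered titles and a fit of numbered titles alone were not run, since titles could not be tied to columns. Genes with few reads, such as Ccl7, Ccr4 and Cxcr4 in BrM, are limited by depth.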
